A study of Mus musculus with 7 samples.

Results

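The nuclear receptor superfamily was examined in whole hearts of newborn mice. The set holds 31 receptor genes chosen by symbol: the 3 retinoid X receptors (RXR), 11 receptors that pair with RXR on DNA, and 17 others. Of these 31 genes, 30 were measured among the 13788 genes of the deposited table, and the estrogen receptor gene Esr1 was not analysed here. All mice were of the C57BL/6 strain and were taken on the day of birth, postnatal day 0. The control group was wild-type (WT, n = 3, replicates 1, 2 and 28). It was set against edKO hearts (n = 4, replicates 5, 6, 15 and 33), in which Rxra and Rxrb were both deleted and the deletion was specific to cardiomyocytes. Which Cre driver was used and which exons were deleted is not given in the sources used here. Total heart was taken, so fibroblasts, endothelium and blood keep both genes and contribute to every value. The study's title places the samples in work on γ-linolenic acid of maternal milk and metabolic maturation of the heart. The question put to these genes is how strongly each receptor was transcribed at birth and whether the partners of RXR differed from other receptors in hearts that lack the 2 main RXR genes in cardiomyocytes.

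Nuclear receptors are transcription factors that carry a DNA-binding domain and, in most members, a pocket for a small lipid-soluble ligand such as a fatty acid, a retinoid, an oxysterol or a hormone. RXR is the shared dimer partner of the fatty acid receptors (PPAR), the retinoic acid receptors (RAR), the oxysterol receptors (LXR), the thyroid hormone receptors (TR) and the vitamin D receptor. These pairs sit on direct repeats of a 6-base half-site, and the spacing between the repeats differs among the partners. Estrogen-related receptors, steroid receptors, ROR receptors and most orphan receptors act as monomers or homodimers. In heart muscle, PPAR and estrogen-related receptors are best known for control of fatty acid oxidation and mitochondrial genes.

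The start regions of 2 receptor genes are shown because Rxrg was the single member that passed the test and because the Rarb window was the only member window that held a direct repeat of half-sites. Each is the stretch of 250 bases before a RefSeq start, read 5′ to 3′ on the gene's strand of GRCm38.p6, in lower case with the searched motif in capitals. The Rarb window lies at chr14:16575477-16575726 on the minus strand, inside the span that the annotation gives this gene. It is known as the promoter with the classical retinoic acid response element.
Rarb: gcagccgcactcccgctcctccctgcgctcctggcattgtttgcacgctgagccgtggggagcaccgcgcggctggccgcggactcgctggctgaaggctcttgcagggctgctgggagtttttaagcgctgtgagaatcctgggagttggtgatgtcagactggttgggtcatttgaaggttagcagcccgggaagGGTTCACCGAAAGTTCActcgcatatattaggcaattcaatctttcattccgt
The 2 Rxrg windows lie on the plus strand at chr1:167598112-167598361 and chr1:167618015-167618264.
Rxrg start 1: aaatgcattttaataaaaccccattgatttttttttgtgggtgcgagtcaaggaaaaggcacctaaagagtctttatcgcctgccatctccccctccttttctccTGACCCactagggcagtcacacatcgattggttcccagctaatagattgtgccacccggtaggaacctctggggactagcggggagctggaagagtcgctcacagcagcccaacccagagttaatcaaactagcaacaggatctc
Rxrg start 2: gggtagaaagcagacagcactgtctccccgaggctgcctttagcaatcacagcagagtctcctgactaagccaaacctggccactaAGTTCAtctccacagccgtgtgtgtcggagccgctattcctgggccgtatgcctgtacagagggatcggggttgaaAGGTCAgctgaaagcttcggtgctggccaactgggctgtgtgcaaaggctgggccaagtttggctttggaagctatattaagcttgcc
The search took the consensus half-site AGGTCA and its close form GGGTCA, together with the variant AGTTCA and its close form GGTTCA, on both strands, alone and as direct repeats spaced by 1 to 5 bases. The Rarb capitals mark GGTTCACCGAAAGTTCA, a direct repeat spaced by 5 bases, from 53 to 37 bases before the start. Such a repeat occurred in 29 of 32851 windows of the same length (0.0883%). The capitals in the first Rxrg window mark GGGTCA on the opposite strand, and those in the second mark AGTTCA and, nearer the start, AGGTCA. The 29 matched members had 48 windows, and Thra and Nr3c1 were not among them. A single AGGTCA stood in 16.7% of the member windows and in 14.0% of all windows. Any of the 4 half-sites stood in 39.6% and 38.6%. A match describes letters in a window and not binding.

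Levels are the deposited normalised values in reads per 1000000. Values for single hearts are given in the order WT 1, 2 and 28, then edKO 5, 6, 15 and 33. The libraries held between 12108464 and 24912403 recovered reads, and edKO 33 was the largest. A count of 3 reads, taken as the floor, corresponded to 0.143 to 0.305 in these units (counting error only). The labels describe biological replicates, so p-values measure the spread between hearts. The cardiomyocyte markers Tnnt2, Actc1, Myh6, Ttn, Ryr2 and Pln were all in the table, with summed levels of 35810 to 39150 in WT and 35140 to 37210 in edKO. Of the listed markers of lung and fat cells, 0 of 3 and 0 of 5 were measured. The summed level of 8 fibroblast markers was 5558 to 7052 in WT and 3408, 5032, 3645 and 6965 in edKO, and its part in the receptor results was not tested. Xist, which is transcribed in female cells, was above 100 in WT 1, edKO 5 and edKO 6 and below 2 in the other 4 libraries, so both groups mixed the sexes.

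Thyroid hormone receptor α and estrogen-related receptor α had the most abundant receptor transcripts in WT hearts. To compare genes, each level was divided by the length of the gene's exons. Thra stood at 35.8 ± 3.54 normalised reads per 1000000 per kb (SD, n = 3), Esrra at 24.7 ± 1.11, and these 2 were separated from each other and from all genes below them in every WT heart. A group of 5 genes with similar levels followed. Nr1h2, the LXRβ gene, stood at 12.4 ± 1.11 per kb, Rxrb at 12.1 ± 0.800, the orphan receptor gene Nr2f6 at 11.9 ± 0.412, Rxra at 11.3 ± 0.364 and the glucocorticoid receptor gene Nr3c1 at 10.3 ± 1.34. Neighbours within this group overlapped between hearts, so their order is not resolved. Rara at 6.68 ± 0.545, Esrrg at 5.10 ± 0.221 and Nr2f2 at 3.85 ± 0.685 per kb completed the first 10. These 10 genes carried 81.5% of the summed receptor level, and the same 10 came first when the longest transcript was used as the length.

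The lower part of the order spanned a wide range. Nr4a1, Rarg, Rarb and Nr2c1 lay between 3.08 and 3.39 per kb in WT, and each overlapped its neighbour. Ppard stood at 2.38 ± 0.376, Pparg at 1.95 ± 0.560 and Ppara, the fatty acid receptor best known from oxidative tissues, at 1.19 ± 0.360 per kb, which placed them 15th, 16th and 22nd among the 30. Rxrg came 21st at 1.25 ± 0.227 per kb. The last 5 were Nr4a2, Thrb, Nr5a2, Nr4a3 and Nr6a1, from 0.639 down to 0.0764 per kb, and the range from Thra to Nr6a1 was 469-fold. Of 29 neighbouring pairs in the order, 20 overlapped between WT hearts and 9 did not. The median receptor stood at 2.17 per kb and the median of all genes at 4.5, with 9 receptors above the latter. The order in edKO had 9 of the same first 10 genes, Nr4a1 having a higher mean per kb than Nr2f2 there.

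**Figure D1:**
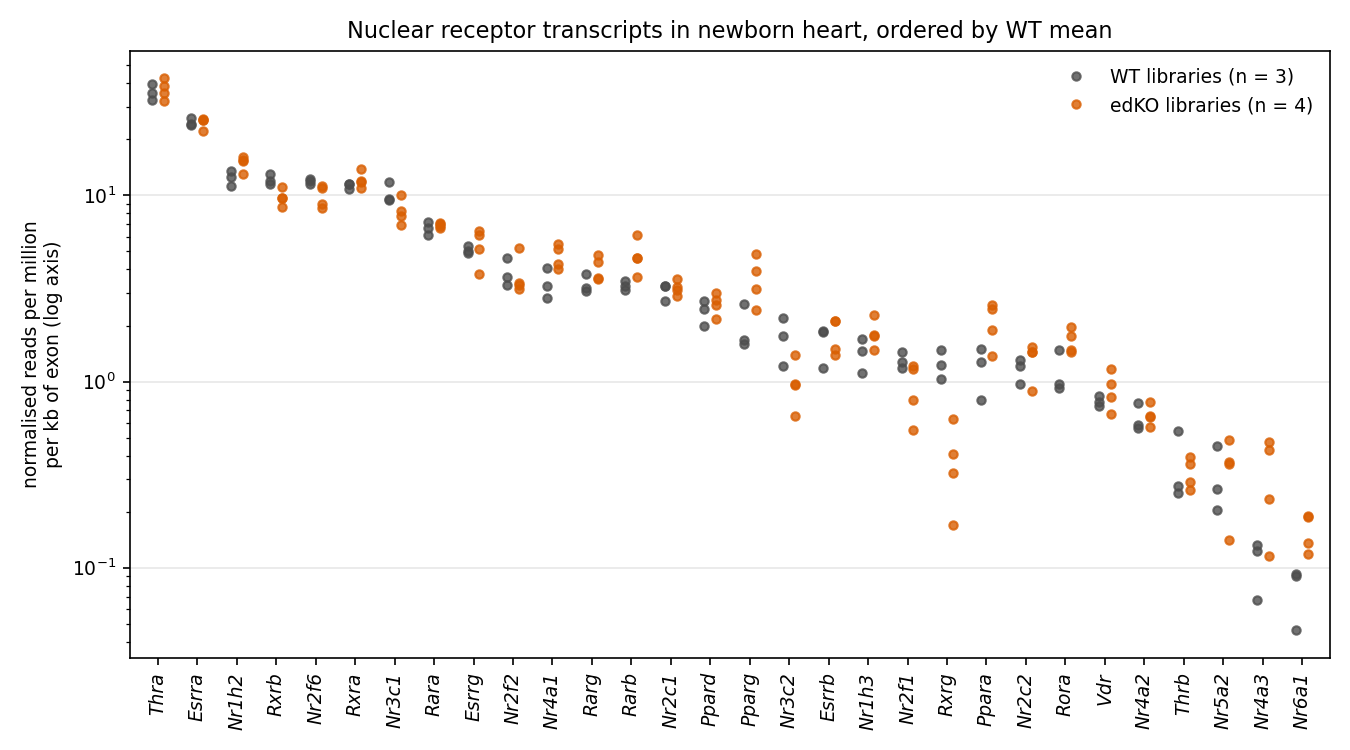
Level of 30 nuclear receptor genes in newborn heart, in normalised reads per 1000000 per kb of exon on a log axis, ordered by the WT mean, with 1 point per library (grey, 3 WT; orange, 4 edKO). Thra and Esrra stand above the rest, Nr1h2 to Nr3c1 overlap near 10, and Nr4a3 and Nr6a1 are lowest; the edKO points of Rxrg lie below its WT points.

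Between edKO and WT, 1 of the 30 receptor genes passed the test by limma at an adjusted p under 0.05, against 4.21% of all genes, a share (3.33%) near that background. This gene was Rxrg, which was lower in edKO, as were 2.13% of all genes. None was called higher by limma, against 2.08% of all genes. On the recovered reads edgeR and voom called 0 receptors, against 3.87% and 3.11% of all genes, and DESeq2 called 3 (Rxrg lower, Pparg and Rarb higher), against 7.63%. At an unadjusted limma p under 0.05 there were 13 receptor genes (43.3%, against 19.2% of all genes). The groups did not overlap for 5 receptor genes, or 16.7%, against 17.4% of all genes: Rarb and Nr6a1 lay above WT in every edKO heart, and Rxrb, Rxrg and Nr2f6 lay below. The corresponding shares of all genes were 8.41% above and 9.04% below. The log2 difference was positive for 21 of the 30 receptors (70.0%, against 49.3% of all genes), with a median of 0.09 against -0.004 over all genes.

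Positive differences were more frequent among the 11 RXR partners than among the 16 other receptors, which went both ways, and no gene of either class passed the test by limma, edgeR or voom (DESeq2 called 2 partners). Of the partners, 10 had a positive difference, from 0.05 for Rara to 0.76 for Pparg, and Thrb had -0.05. Their median was 0.26, and 4 of the 11 (36.4%) had an unadjusted limma p under 0.05. Of the other receptors, 10 were positive and 6 negative, with 7 (43.8%) at an unadjusted p under 0.05, a median of 0.05 and a range from -0.71 for Nr3c2 to 0.74 for Nr4a3. In the single edKO hearts the median partner stood 0.31, 0.26, 0.21 and 0.10 above its WT mean on the log2 scale in replicates 5, 6, 15 and 33. The median of the other receptors stood at -0.05, 0.14, 0.12 and -0.03. Moving Nr4a1 and Nr4a2, which can also bind RXR, to the partners left these medians at 0.26 and 0.05. No other move between the classes was tried. The orphan receptor genes Nr2f1, Nr2f2 and Nr2f6 stayed among the others, with -0.46, -0.05 and -0.26. They are among the 6 negative genes of that class, so the contrast in signs depends on how the classes were drawn. The size of the differences, regardless of sign, was similar, with a median of 0.26 in the partners and 0.21 in the others. With library weights the medians with sign were 0.21 and 0.11. The difference between the classes was not tested, because genes are not replicates of a genotype.

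**Figure D2:**
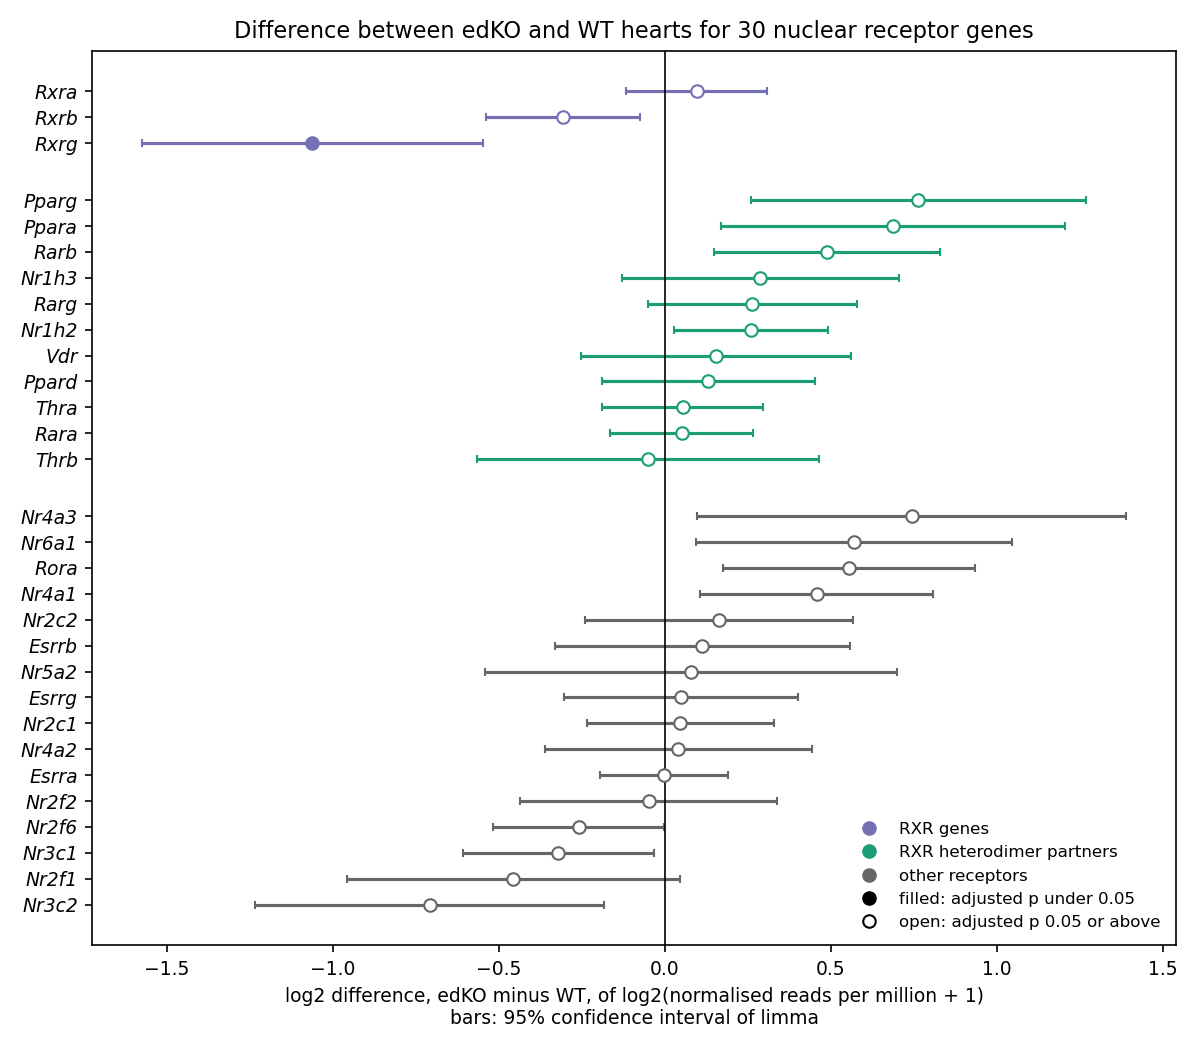
Log2 difference between edKO and WT for 30 nuclear receptor genes in 3 classes (RXR genes, RXR partners, other receptors), as points with the 95% confidence interval of limma; filled points passed at an adjusted p under 0.05. Rxrg is the only filled point, and 10 of 11 partners lie to the right of 0.

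Library edKO 33 lay closest to WT for many receptors. It was the edKO library nearest to the WT mean for 13 of the 30 receptor genes (43.3%), for 28.7% of all genes and for 41.6% of the 580 called genes. Without this library 5 receptor genes passed the test by limma, namely Rxrg, Rxrb, Rarb, Pparg and Ppara, with adjusted p between 0.0099 and 0.044. In that fit 8.54% of all genes were called, against 4.21% with all libraries, so calls became more frequent across the whole table. With library weights, which also gave 5 receptor calls, the share of all genes was 9.31%. In the other 6 fits that left out 1 library the count was 0 or 1. Without WT 28 the single call was Rora, and without WT 1, WT 2, edKO 5 or edKO 15 there was none.

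Among the RXR genes themselves, Rxrg was lower in edKO, Rxrb stood below WT in every edKO heart without passing the test, and Rxra did not. Rxra (chr2:27676440-27762957) had 59.3, 62.8 and 62.7 in WT and 64.1, 75.5, 65.3 and 59.5 in edKO, so the groups overlapped (log2 difference 0.10, 95% interval -0.12 to 0.31, limma adjusted p = 0.63). Rxrb (chr17:34031812-34038399) had 45.5, 51.7 and 47.3 in WT and 34.2, 38.5, 38.7 and 44.0 in edKO. Its groups did not overlap, and edKO 33 was the highest of the edKO hearts (log2 difference -0.31 ± 0.11 SE, limma adjusted p = 0.139, and 0.044 without edKO 33). With other single libraries left out, the adjusted p of Rxrb reached 0.383. The values are totals over whole genes, and a deletion of a few exons in 1 cell type need not change them. In whole tissue, fewer cells of a type and less RNA per cell cannot be told apart.

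Rxrg (chr1:167598384-167639623), which is known mainly from muscle and nervous tissue, was not a target of the deletion. Its levels were 2.81, 3.40 and 2.36 in WT and 0.741, 0.934, 0.389 and 1.45 in edKO. Every edKO heart lay below every WT heart, at a mean of 0.878 ± 0.441 against 2.86 ± 0.522. The fall was 3.26-fold between the means and -1.06 ± 0.23 (SE) on the log2(value + 1) scale, which understates low genes (limma adjusted p = 0.029). It rested on 32 to 49 reads per WT library and on 8, 15, 6 and 35 reads in edKO. The call was lost without WT 1, WT 2, WT 28, edKO 5 or edKO 15 (adjusted p 0.068 to 0.147). On the recovered reads the adjusted p was 0.054 by edgeR, 0.0502 by voom and 0.0075 by DESeq2.

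Rxra took a larger share of the RXR transcripts in every edKO heart than in any WT heart. Per kb, Rxra made up 46.1%, 44.3% and 47.0% of the RXR sum in WT and 56.8%, 57.8%, 54.7% and 48.2% in edKO. Rxrg made up 5.04% ± 0.756 in WT and 1.71% ± 0.827 in edKO. Rxrb made up 49.2% ± 0.765 and 43.9% ± 3.77, and edKO 33, at 49.0%, lay within the WT range. The RXR sum was 24.7 ± 1.25 per kb in WT and 22.3 ± 1.37 in edKO, and the groups overlapped. The summed level of the 11 partners was 2.80, 2.86 and 2.81 times the RXR sum in WT and 3.82, 3.56, 3.73 and 3.16 times in edKO, with no overlap. The partner sum itself was 65.8, 74.4 and 68.7 per kb in WT and 78.9, 85.2, 81.65 and 71.3 in edKO, and the groups overlapped. Thra alone gave 35.8 of a mean of 69.6 in WT and 37.25 of 79.3 in edKO. With the longest transcript as the length, Rxra made up 39.0% in WT and 47.0% in edKO. These shares are descriptions, as the numerators and denominators are the genes listed above.

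**Figure D3:**
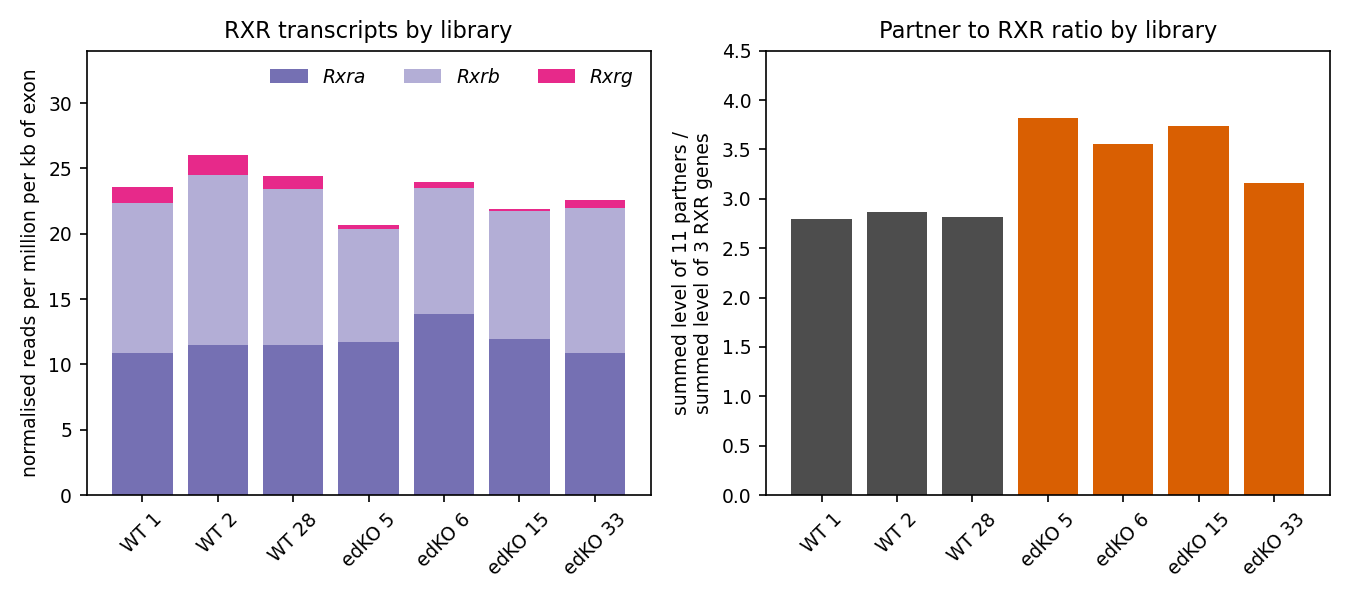
Left, summed level of the 3 RXR genes in each library in normalised reads per 1000000 per kb of exon, stacked by gene; right, summed level of the 11 RXR partners divided by that of the 3 RXR genes. The Rxrg segment is thinner in the edKO libraries, and the ratio is 2.80 to 2.86 in WT and 3.16 to 3.82 in edKO.

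The PPAR genes encode fatty acid receptors. Pparg, best known from fat cells, had 7.67, 4.71 and 4.91 in WT and 11.7, 14.3, 9.25 and 7.15 in edKO. Only edKO 33 fell within the WT range, below WT 1 (log2 difference 0.76 ± 0.23 SE, limma adjusted p = 0.092). Ppara had 3.04, 5.74 and 4.91 in WT and 7.28, 9.37, 9.91 and 5.28 in edKO, again with edKO 33 alone in the WT range (0.69 ± 0.24, adjusted p = 0.137). Ppard, the broadly expressed member, had 20.5, 18.4 and 14.9 in WT and 19.3, 22.5, 20.7 and 16.2 in edKO, with broad overlap (0.13, interval -0.19 to 0.45, adjusted p = 0.67). Neither Pparg nor Ppara passed with all libraries, and both passed without edKO 33 (limma adjusted p 0.022 and 0.035). Leaving out other single libraries gave up to 0.296 and 0.396. By DESeq2 Pparg passed at 0.029. No listed marker of fat cells was measured. Per kb, Ppard made up 43.0% ± 2.40 of the PPAR sum in WT and 32.1% ± 3.08 in edKO, and these shares did not overlap. Ppard lies on chromosome 17, 5.73 Mb from Rxrb.

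The RAR genes encode the receptors of retinoic acid. Rarb had 17.1, 16.3 and 18.4 in WT and 24.3, 24.1, 32.2 and 19.3 in edKO. All edKO hearts lay above all WT hearts, edKO 15 being highest and edKO 33 lowest (log2 difference 0.49 ± 0.15 SE, limma adjusted p = 0.109, and 0.021 without edKO 33). By DESeq2 its adjusted p was 0.0495. With other single libraries left out, its limma adjusted p reached 0.301. The Rarb promoter printed above holds the only direct repeat found in the member windows. Of the Rarb exons, 34.1% overlap Top2b on the opposite strand, and no source used here states that reads were counted by strand, so some Rarb reads may belong to Top2b. Top2b itself stood at 173.5 ± 15.1 in WT and 168 ± 19.4 in edKO (log2 difference -0.05, limma adjusted p = 0.84).

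Both other RAR genes overlapped between the groups. Rara had 26.8, 31.5 and 29.2 in WT and 30.1, 30.5, 29.2 and 31.02 in edKO (log2 difference 0.05, interval -0.17 to 0.27). Rarg had 16.1, 13.6 and 12.98 in WT and 18.6, 20.4, 15.1 and 15.3 in edKO (0.26, interval -0.05 to 0.58, limma adjusted p = 0.35). Per kb the RAR sum was 13.2 to 13.5 in WT and 14.4 to 16.4 in edKO.

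Of the LXR genes, which encode oxysterol receptors, Nr1h2 made up 89.6% ± 2.76 of the LXR sum per kb in WT. Nr1h2 had 37.8, 45.2 and 42.1 in WT and 51.8, 43.7, 51.4 and 53.6 in edKO, and only edKO 6 fell within the WT range (log2 difference 0.26 ± 0.10 SE, limma adjusted p = 0.206). Nr1h3, the LXRα gene, had 4.28, 2.79 and 3.67 in WT and 5.71, 4.43, 4.46 and 3.73 in edKO, where edKO 33 alone overlapped WT (0.29 ± 0.19, adjusted p = 0.44). The thyroid hormone receptors are the route by which thyroid hormone acts on cardiac myosin and calcium handling genes. Thra had 149.5, 182 and 164 in WT and 164, 196, 179 and 148 in edKO (0.05, interval -0.19 to 0.30), and it made up 99.0% of the TR sum per kb. Thrb stood at 2.64 ± 1.202 and 2.42 ± 0.457 (-0.05, interval -0.57 to 0.46). Vdr, the vitamin D receptor gene, stood at 4.43 ± 0.291 and 5.13 ± 1.18 (0.15, interval -0.25 to 0.56). Thra, Thrb and Vdr thus overlapped between the groups. Of the Thra exons, 5.70% overlap Nr1d1 on the opposite strand.

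**Figure D4:**
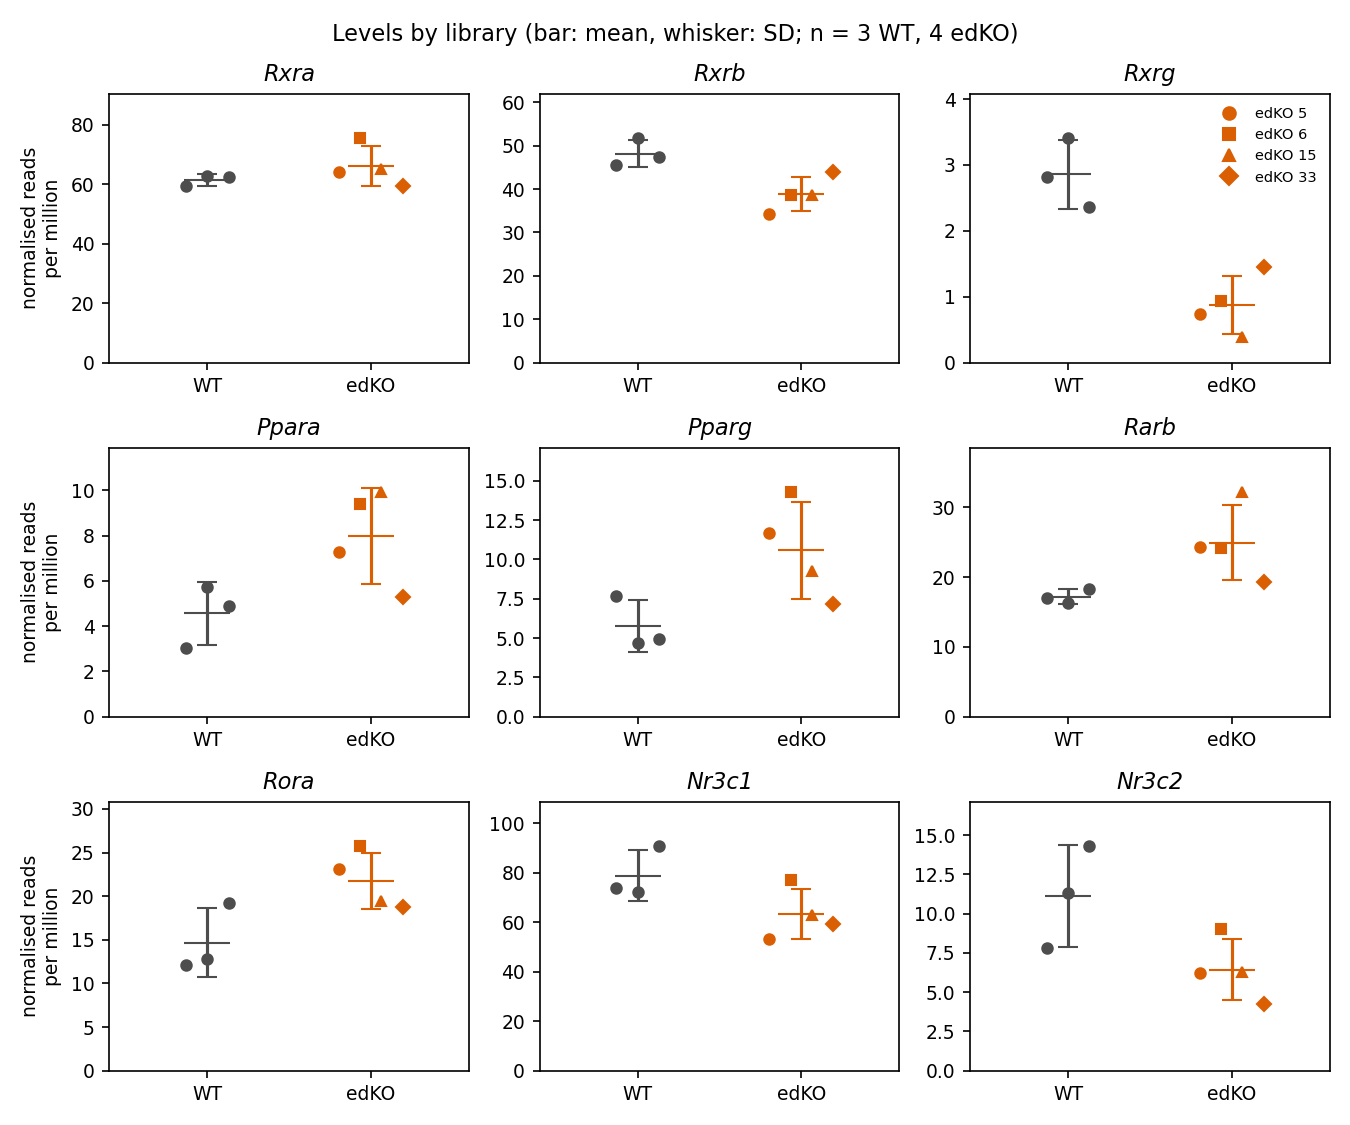
Levels of 9 receptor genes in single libraries, in normalised reads per 1000000, with the mean (horizontal line) and SD (whisker) of 3 WT and 4 edKO libraries and a separate marker for each edKO library. The groups do not overlap for Rxrb, Rxrg and Rarb; edKO 33 (diamond) is the edKO library nearest WT for Rxrb, Rxrg, Ppara, Pparg and Rarb, and the lowest for Nr3c2.

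The estrogen-related receptor genes encode orphan receptors that activate mitochondrial genes, and their levels overlapped throughout. Esrra had 105, 114 and 106 in WT and 112, 112, 111 and 96.7 in edKO (log2 difference -0.003, interval -0.19 to 0.19, limma adjusted p = 0.99), a sign that turned under quantile normalisation (0.02). Esrrg stood at 31.6 ± 1.37 and 33.4 ± 7.34 (0.05, interval -0.30 to 0.40), and Esrrb at 9.90 ± 2.37 and 10.8 ± 2.39 (0.11, interval -0.33 to 0.56). In both Esrra and Esrrg, edKO 33 was the lowest of the 7 hearts. Esrra made up 78.5% ± 0.936 of the summed level of the 3 genes per kb in WT.

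Rora encodes a receptor that activates clock and lipid genes. It had 12.1, 12.8 and 19.2 in WT and 23.1, 25.7, 19.4 and 18.8 in edKO. WT 28 overlapped edKO 33, and the other hearts were separated (log2 difference 0.55 ± 0.17 SE, limma adjusted p = 0.104, and 0.049 without WT 28). Leaving out other single libraries gave an adjusted p of up to 0.317 for Rora. Some superfamily genes outside the 31 were also measured. Rorb, a paralogue expressed mainly in brain and retina, stood at 1.71 ± 0.132 in WT and 3.37 ± 0.874 in edKO, without overlap (log2 difference 0.67, limma adjusted p = 0.108). Nr1d1, which encodes the repressor REV-ERBα at the same DNA elements, stood at 33.3 ± 6.27 and 22.7 ± 4.67 (-0.54, adjusted p = 0.110). Nr0b2, an atypical receptor with no DNA-binding domain, stood at 7.28 ± 0.176 and 9.75 ± 1.28 (0.37, adjusted p = 0.198). Nr1d2, Nr1h4 and Nr1i3 did not pass.

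The corticoid receptor genes were lower on average in edKO without passing the test. Nr3c1, the glucocorticoid receptor gene, had 73.6, 72.2 and 90.7 in WT and 53.3, 77.1, 63.0 and 59.3 in edKO, and edKO 6 alone overlapped WT (log2 difference -0.32 ± 0.13 SE, limma adjusted p = 0.209). Nr3c2, the mineralocorticoid receptor gene, had 7.82, 11.3 and 14.3 in WT and 6.24, 9.01, 6.32 and 4.22 in edKO. WT 1 and edKO 6 overlapped, and edKO 33 was lowest (-0.71 ± 0.24, adjusted p = 0.130).

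Of the COUP-TF family, orphan receptors that act in atrial and vascular development, Nr2f2 overlapped between the groups. It had 31.4, 28.4 and 39.8 in WT and 27.2, 29.0, 28.6 and 44.99 in edKO, so the highest value of each group was in WT 28 and in edKO 33 (log2 difference -0.05, interval -0.44 to 0.34). The mean log2 level of 11 atrial genes relative to WT was -0.10, -0.19 and 0.29 in WT and 0.02, -0.40, -0.63 and 0.62 in edKO, with the same 2 libraries highest. The summed level of the atrial genes gave another order, 5119, 4749 and 5544 in WT and 7793, 4292, 4590 and 8400 in edKO, in which edKO 5, the heart with the least Nr2f2, came second. The part of chamber content in this result was not tested. Nr2f1 had 6.51, 6.02 and 7.38 in WT and 4.06, 5.94, 2.78 and 6.17 in edKO (-0.46, interval -0.96 to 0.04, limma adjusted p = 0.305). It was lowest in edKO 15 and edKO 5, the 2 hearts in which the fibroblast marker sum was also lowest, and the part of fibroblast content was not tested. Nr2f6 had 34.2, 36.6 and 35.6 in WT and 25.5, 32.6, 27.0 and 33.5 in edKO, with no overlap (-0.26 ± 0.12 SE, limma adjusted p = 0.258). Of its exons 54.4% overlap Ocel1 on the opposite strand, which stood at 8.99 ± 1.29 and 9.80 ± 1.12, so the origin of part of its reads is uncertain.

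The NR4A genes encode receptors that are induced as immediate early genes. Nr4a1 had 11.4, 14.3 and 9.86 in WT and 18.2, 19.3, 15.1 and 14.1 in edKO, where only edKO 33 and WT 2 overlapped (log2 difference 0.46 ± 0.16 SE, limma adjusted p = 0.142). Nr4a3 had 0.732, 0.791 and 0.400 in WT and 2.57, 0.693, 1.41 and 2.83 in edKO, from 5 to 11 reads per WT library and 29, 11, 23 and 69 in edKO (0.74 ± 0.29, adjusted p = 0.196). Nr4a2 stood at 2.60 ± 0.458 and 2.69 ± 0.353 (0.04, interval -0.36 to 0.44). The summed level of 21 measured immediate early genes was 502 to 516 in WT and 569 to 672 in edKO. The log2 difference was positive for 16 of them and negative for 5, and Fos, Jun and Egr1 had 0.04, -0.01 and -0.07. Of the 21, the growth-restraining gene Btg2, the transcription factor gene Klf6 and Ier5 were called higher and 18 did not pass (14.3% called, against 4.21% of all genes), with a median log2 difference of 0.15. Klf6 passed whichever library was left out. The call of Btg2 was lost without WT 2, WT 28 or edKO 5. That of Ier5 was lost without any 1 WT library or without edKO 5 (limma adjusted p up to 0.138). Whether Nr4a1 and Nr4a3 move with the wider set of immediate early genes was not tested.

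Among the remaining orphan receptors, Nr6a1, known from germ cells, had 0.501, 0.997 and 0.982 in WT and 2.05, 1.48, 1.29 and 2.02 in edKO. All edKO hearts lay above all WT hearts, on 6 to 14 reads in WT and 21 to 49 in edKO (log2 difference 0.57 ± 0.22 SE, limma adjusted p = 0.181). It lies on chromosome 2, 10.96 Mb from Rxra. The TR2 and TR4 genes Nr2c1 and Nr2c2 stood at 14.2 ± 1.42 and 17.3 ± 2.57 in WT and at 14.7 ± 1.33 and 19.8 ± 4.36 in edKO, and Nr5a2 at 1.81 ± 0.758 and 2.004 ± 0.851. The 3 genes overlapped between the groups, with intervals of -0.23 to 0.33, -0.24 to 0.57 and -0.54 to 0.70 in that order. Of the Nr2c2 exons 30.7% overlap Mrps25 on the opposite strand.

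Target genes of the receptors were read beside the receptors, from lists of textbook targets. These lists, like the other gene lists here, were chosen with earlier results of these data known. The shares called in them are therefore descriptions and are not independent of the data. Each count of calls below is to be read against the 4.21% of all genes that were called, 2.08% higher and 2.13% lower. Of 30 PPAR targets 28 were measured, with 22 lower in edKO, 0 higher and 6 not passing (78.6% called), and a median log2 difference of -1.38. Ucp3, a mitochondrial carrier, had 56.3, 57.9 and 48.9 in WT and 1.61, 2.20, 1.47 and 0.509 in edKO. Plin5, a lipid droplet protein gene, and Acot1, a thioesterase gene with a close paralogue in Acot2 that may share its reads, had log2 differences of -4.24 and -3.34. Their limma adjusted p ran from 3.09e-07 to 1.22e-06, and these 3 genes passed whichever library was left out. The receptor genes Ppara and Pparg had positive differences, given above. The median PPAR target stood -1.27, -1.34, -1.31 and -1.61 from its WT mean in edKO 5, 6, 15 and 33, so the library closest to WT in Ppara, Pparg and Rxrb was the lowest here.

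Of 14 LXR targets 12 were measured, with 4 lower, 0 higher and 8 not passing (33.3% called), and a median of -0.18. The lower genes were the desaturase gene Scd2, the fatty acid synthase gene Fasn, Lpcat3, which remodels phospholipids, and Srebf1, a regulator of lipid synthesis, with log2 differences of -0.99, -0.96, -0.97 and -0.70. Abca1 and Abcg1, the cholesterol exporters among the LXR targets, had -0.22 and -0.56 (limma adjusted p = 0.40 and 0.060). Of the 12 measured LXR targets, 9 had a negative and 3 a positive difference, the highest being 0.39. Of 14 RAR targets only 5 were in the table, and 1 of these was higher. Dhrs3, a retinaldehyde reductase gene, had 23.3, 22.6 and 21.2 in WT and 41.3, 33.7, 34.3 and 27.6 in edKO (0.58 ± 0.13 SE, limma adjusted p = 0.034). The call was lost without any 1 library other than edKO 33 (adjusted p 0.055 to 0.134).

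Of 12 TR targets, 2 were lower, 1 was higher and 9 did not pass (25.0% called, against 4.21% of all genes), with a median of -0.10. The list was not split by whether the hormone raises or lowers a gene. These counts and this median therefore give no direction of receptor activity. Me1, malic enzyme, went from 70.2 ± 4.51 to 25.5 ± 4.78 and the β1-adrenergic receptor gene Adrb1 from 15.5 ± 2.10 to 9.19 ± 0.935, while Myh7, the slow myosin heavy chain, went from 5658 ± 1249 to 13660 ± 2712. Their log2 differences were -1.44, -0.69 and 1.27 (limma adjusted p = 0.00014, 0.021 and 0.010). The call of Adrb1 was lost without WT 1, WT 2, edKO 5 or edKO 15 (up to 0.104), and that of Myh7 without WT 28 (0.055). Myh6, the fast myosin that thyroid hormone is known to raise, had -0.13 (adjusted p = 0.75). Of 13 ERR targets, 1 was lower, 1 was higher and 11 did not pass (15.4% called), with a median of -0.03. The lower was the pyruvate dehydrogenase kinase gene Pdk4, which is also in the PPAR list, with -1.92, and the higher was the mitochondrial creatine kinase gene Ckmt2, with 0.53. Of 6 VDR targets only Spp1 was in the table, at 1.14 ± 0.485 and 1.56 ± 0.740, and did not pass.

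The 13 targets of the glucocorticoid receptor all had positive differences, with a median of 0.85. Of these, 5 were called higher and 8 did not pass (38.5% called higher, against 2.08% of all genes). Zbtb16, a transcriptional repressor gene, had 2.12, 5.33 and 8.26 in WT and 31.8, 18.5, 16.4 and 10.0 in edKO (log2 difference 1.72, limma adjusted p = 0.031). Fkbp5, a chaperone of the receptor, had 28.6, 19.8 and 22.8 in WT and 128, 59.1, 59.7 and 54.2 in edKO (1.54, adjusted p = 0.0070), and it passed whichever library was left out. Klf15, Per1 and Cebpd, all transcription regulators, had 1.46, 1.10 and 1.21. The median target stood 1.49, 0.50, 1.01 and 0.36 above its WT mean in edKO 5, 6, 15 and 33, while Nr3c1 was lower on average. Erythroid markers, all 6 of which were measured and 1 called higher, had the same order of edKO hearts, with mean log2 levels of 0.88, 0.30, 0.51 and -0.08 relative to WT. In WT 1, 2 and 28 these markers had 0.41, -0.30 and -0.11, while the median target of the receptor stood at 0.04, 0.02 and -0.04. The summed level of the erythroid markers was 40410, 24080 and 28360 in WT and 53810, 32460, 41080 and 27750 in edKO. The part of the erythroid markers in the target values was not tested. The calls of Zbtb16, Klf15 and Cebpd were each lost without WT 1, WT 2 or edKO 15, and some without other libraries (adjusted p 0.052 to 0.159). Of 7 clock genes bound by ROR and REV-ERB, 1 was higher and none lower (14.3% called), with a median of 0.24. That gene was Arntl, which encodes BMAL1, with 0.73 (adjusted p = 0.043). It was called neither without any 1 WT library nor without edKO 5 or edKO 15 (0.1001 to 0.169).

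**Figure D5:**
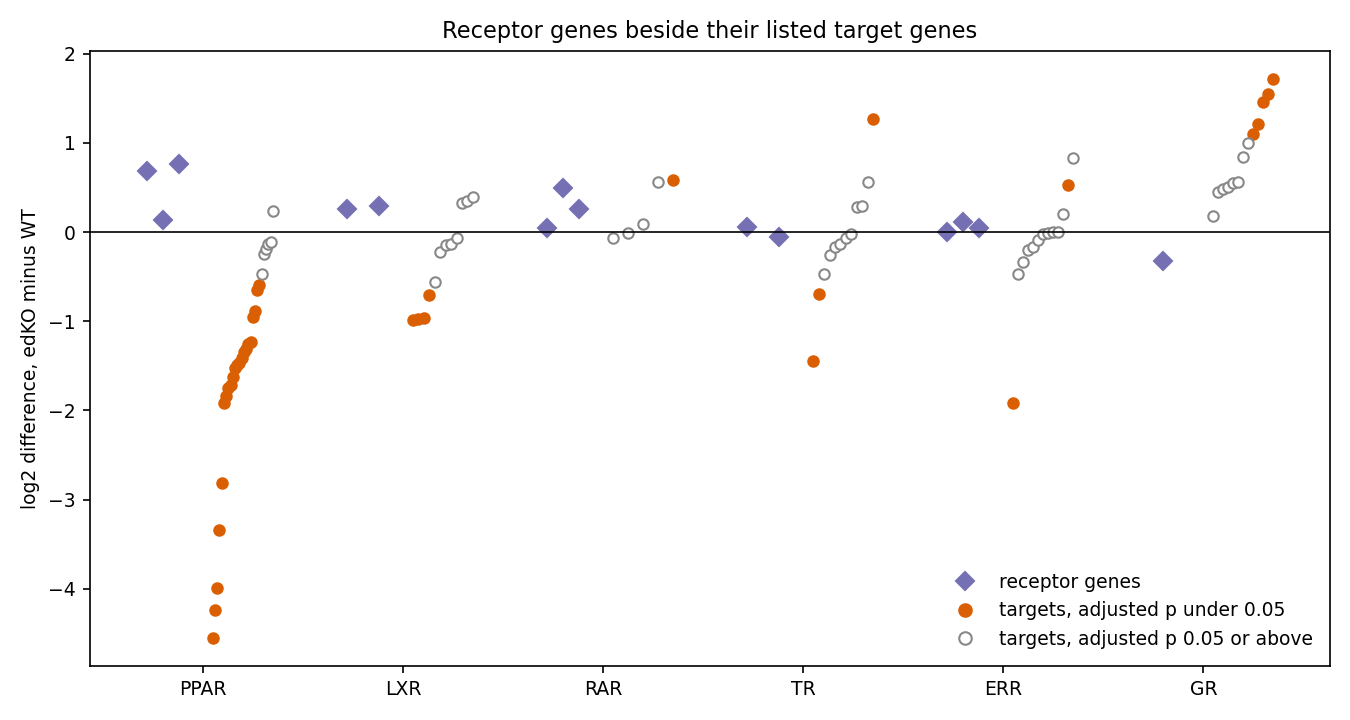
Log2 difference between edKO and WT for receptor genes (diamonds) and for the listed targets of each receptor class (circles, sorted; filled where the adjusted p was under 0.05). PPAR targets reach -4.55 while the 3 PPAR genes lie above 0, and all 13 glucocorticoid receptor targets lie above 0 while Nr3c1 lies at -0.32.

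Coregulators, the proteins that receptors recruit to activate or silence genes, were called about as often as other genes. Of 20 measured, 1 was called higher, none lower and 19 did not pass (5% called, against 4.21% of all genes), with a median of -0.02. Ppargc1a, the coactivator of PPAR and ERR receptors, had 74.6, 95.9 and 94.2 in WT and 144, 128, 143 and 104 in edKO, with no overlap (log2 difference 0.55 ± 0.13 SE, limma adjusted p = 0.042). The call was lost without any 1 library other than edKO 33 (adjusted p 0.066 to 0.166). The corepressor gene Ncor1 had -0.07.

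Genes that make, carry or clear receptor ligands were also read. Of 17 listed, 12 were measured, 2 were lower, 1 was higher and 9 did not pass (25.0% called), with a median of -0.15. Aldh1a2, which makes retinoic acid, had 50.6, 41.0 and 41.1 in WT and 16.0, 26.5, 18.6 and 28.7 in edKO (log2 difference -0.98 ± 0.19 SE, limma adjusted p = 0.015). Its groups did not overlap, and the call was lost without any 1 WT library (limma adjusted p 0.056 to 0.084). Its 2 lowest hearts were again edKO 5 and edKO 15, those with the lowest fibroblast marker sum. In edKO 33 that sum was 6965, within the 5558 to 7052 of WT, while Aldh1a2 lay below every WT heart. The part of fibroblast content was not tested. The summed level of 4 epicardial markers was 144 to 166 in WT and 118 to 206 in edKO. Of these 4 markers, 1 was called higher, against 2.08% of all genes, and their part was not tested either. The second lower gene was Fads1, a desaturase of polyunsaturated fatty acids, with -0.58 (adjusted p = 0.044, lost without any 1 library other than edKO 33, 0.058 to 0.166), and the higher gene was Dhrs3, given above.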

How the data were processed

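Total RNA of whole hearts, 3 WT and 4 edKO, was extracted with an RNeasy kit. Per the labels' protocols, 1 to 10 ng was turned into amplified cDNA (Ovation RNA-seq System v2) and read as single 61-nt reads. The tools in the submitters' processing notes are RSEM 1.3.1, cutadapt and limma, and the build is GRCm38. The annotation release, the filter, the order of steps and whether counting used strand were not given in the sources used here.

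Deposited values are a signal in normalised reads per 1000000. Adding 0.5 to the reads, dividing by an effective library size and multiplying by 1000000 gives every value, and inverting this gave whole reads for 100% of 96516 values (tolerance 1e-06). After this normalisation a shift common to most transcripts cannot be seen. No molecular identifiers mark the amplified reads, so floors describe counting error alone. Chi-square per degree of freedom between libraries was 9.07 to 56.1, so no library was a second reading of another. This measure cannot tell separate amplifications of RNA from 1 heart from separate hearts.

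The main test was limma 3.58.1 (R 4.3.3) on log2(value + 1) of all 13788 genes and 7 libraries, with a mean-variance trend, no covariate, 2-sided. The p-values were adjusted over all genes (Benjamini-Hochberg), with a threshold of 0.05. Fold changes on this scale understate low genes. Exon lengths and overlaps came from GENCODE M21 on GRCm38, which held 13721 of the gene identifiers (99.5%). Promoters are RefSeq windows of GRCm38.p6. Members and the 14 gene lists were chosen with earlier results of these data known. The text names all members and up to 4 called genes of each list with the largest log2 difference (2 abundant ones where none was called). Chosen after their values were seen were Per1, Abca1, Abcg1, Myh6, Ncor1, Top2b, Ocel1, Rorb, Nr1d1, Nr0b2, Fos, Jun, Egr1 and Xist. Some genes that the rule gives are not reported here.

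Alternatives were pseudocounts of 0.1 and 5, a mean of at least 1, quantile normalisation, no trend, robust shrinkage, library weights, Xist as a covariate, each library left out, and edgeR 4.0.16, DESeq2 1.42.0 and voom on the recovered reads. On simulated counts for these 2 groups, with 200 of 13788 genes changed, limma recovered 32.8% of 1.5-fold, 77.6% of 2-fold and 93.9% of 4-fold changes, with 10 false calls among 146. Python 3.11.15, pandas 2.3.3, numpy 2.4.6 and matplotlib 3.10.9 were used.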

Additional observations from a re-analysis of the deposited data

Results flagged for a closer look

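Among 61 receptor and list genes, 6 had 1 edKO heart set apart from the other 3, by the gap to its nearest neighbour relative to the range of the 4 hearts. Chance alone sets apart about 1 in 20 groups of this size. Esrra stood at 96.7 in edKO 33 and at 111 to 112 in the other edKO hearts. Nr2c2 stood at 13.3 in edKO 33, below 21.4 to 22.9 in the others. Nr2f2 stood at 44.99 in edKO 33, above 27.2 to 29.0. Klf6 stood at 86.2 in edKO 33, below 106 to 108 in the others and above all WT hearts. In edKO 5, Fkbp5 stood at 128, above 54.2 to 59.7, and Acot1 at 18.6, above 10.9 to 11.6.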

How the results depend on the processing

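Over 18 alternatives the 30 receptors gave 540 values, of which 499 kept their direction and side of the threshold, 8 lost a call, 11 gained one and 22 changed sign. The sign held throughout for 20 receptors. Sign changes were Esrra (0.0199 with quantile normalisation, 0.00684 with library weights) and Nr2f2 (0.00367 with Xist as a covariate). On leaving out single libraries, the ranges that crossed 0 were -0.0073 to 0.107 for Rara, -0.0146 to 0.127 for Thra, -0.202 to 0.206 for Thrb, -0.0253 to 0.0496 for Esrra, -0.0827 to 0.217 for Esrrb, -0.0451 to 0.201 for Esrrg, -0.0328 to 0.0919 for Nr2c1, -0.212 to 0.0854 for Nr2f2, -0.019 to 0.143 for Nr4a2 and -0.0793 to 0.301 for Nr5a2. Receptor genes called were 5 with library weights (Nr3c2, Pparg, Rarb, Rxrb and Rxrg, beside 9.31% of all genes), 3 with DESeq2 (Pparg, Rarb and Rxrg), 0 with edgeR, voom or Xist as a covariate, and 0 to 5 on leaving out single libraries. Genes called in all were 580 by the main test, 370 with no trend, 1284 with library weights, 364 with Xist, 1052 with DESeq2 and 222 to 1177 on leaving out single libraries. The partner median was 0.16 at a pseudocount of 5 and 0.19 to 0.26 on leaving out single libraries, and that of the other receptors -0.01 to 0.08. With library weights these medians were 0.21 and 0.11. Rxra made up 38.98% of the RXR sum in WT with the longest transcript. Of 30 called list genes, 14 passed in all 7 fits that left out 1 library. The causes of these shifts were not tested. No paired analysis was possible because the 2 groups share no replicate number. Nr4a3 and Nr6a1, with 5 to 14 reads per WT library, are limited by depth.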
